A study of Mus musculus with 6 samples.

Results

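The Ces1 family of carboxylesterases was followed in liver RNA of mice that lacked the bile acid receptor FXR, with or without the transcription factor XBP1 in the liver. Its members were taken by gene symbol, Ces1a to Ces1h, which gave 8 of the 54232 genes in the count tables. The family was selected on its fall in the contrast of DKO with SKO in these same 6 libraries, so its differences between the groups are given as descriptions, without a test. The control group, SKO (Fxr-/- Xbp1 fl/fl, n = 3 libraries), had no FXR and carried floxed Xbp1 alleles, and the DKO group (Fxr-/- Xbp1 LKO, n = 3 libraries) had also lost Xbp1 in the liver. All mice were C57BL/6 males on chow, 8 to 10 weeks old. Every library therefore carried the FXR deletion, and mice with FXR, or without XBP1 alone, formed no group here. The sources used here do not name the promoter that drove the deletion of Xbp1. The titles of 4 libraries, all 3 DKO and 1 SKO, carry a pair of numbers of unstated meaning, and no label says how many mice a library held, so the spread below is that between libraries.

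Carboxylesterases of the Ces1 group are serine hydrolases of the endoplasmic reticulum lumen that cleave ester bonds in drugs, in triglyceride and in other lipids. Hepatocytes make them in large amounts, and in the mouse the family has expanded into a row of tandem copies where humans rely on the gene CES1. Ces1d is the enzyme first named triacylglycerol hydrolase, which helps to mobilise stored triglyceride for very low density lipoprotein (VLDL). XBP1 is made active when the endoplasmic reticulum enzyme IRE1 cuts its mRNA, and without XBP1 the liver's IRE1 becomes overactive and can also cut other mRNAs, commonly at the letters CTGCAG in a small hairpin loop.

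The 8 genes lie side by side on chromosome 8 (GRCm38, GENCODE M21), from Ces1a to Ces1h in alphabetical order, over chr8:93020214-93379725. The cluster spans 359512 bp, all 8 genes are on the minus strand, and the gaps between neighbours run from 3379 to 34784 bp. The coding transcripts used here have 14 exons, or 13 in Ces1c, and are 1828 to 2388 bp long. Their coding sequences are 71.8% to 88.8% identical over the 28 pairs (median 76.8%), with Ces1b and Ces1c as the closest pair. One place in exon 2 is printed for all 8, since CTGCAG is the core that IRE1 is known to cut. It was chosen for that word in Ces1c, and its likeness between members does not stand for that of the whole coding sequence. Each line gives 30 coding bases, 5′ to 3′ on the minus strand, with CTGCAG in capitals where it is present:
Ces1c: ctccaccacagcCTGCAGagccctggagct
Ces1d: ctccaccacagcCTGCAGagccctggagct
Ces1e: ctccaccacagcCTGCAGagccctggagct
Ces1f: ctccaccacagcCTGCAGagccctggagct
Ces1b: ctccaccagagcCTGCAGagccctggagct
Ces1g: ctccaccagagcCTGCAGagccctggagct
Ces1a: ctccaccacagcctgccgagacctggagct
Ces1h: ctccaccacagcctccagagccctggagct
The stretch lies at chr8:93130726-93130755 in Ces1c, chr8:93194908-93194937 in Ces1d, chr8:93223926-93223955 in Ces1e and chr8:93275273-93275302 in Ces1f. It lies at chr8:93079386-93079415 in Ces1b, chr8:93335051-93335080 in Ces1g, chr8:93044942-93044971 in Ces1a and chr8:93374440-93374469 in Ces1h. Counted from 1 at the 5′ end of the stretch and with Ces1c as the reference, Ces1b and Ces1g carry C9G, Ces1a carries A17C and C21A, and Ces1h carries G15C. The 6 members with CTGCAG at this place are the 6 with measurable RNA in these livers, and the 2 without it, Ces1a and Ces1h, are close to 0 in both groups. Those 2 gave no fold change, so members with and without the word at this place could not be compared.

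CTGCAG is a common word, so its presence sets no member apart. Of 2837 protein-coding transcripts of the same length range, 79.2% hold it on the transcribed strand. All 8 members hold it at least once, since Ces1a has a copy in exon 5 and Ces1h a copy in exon 14. Ces1b has 2 copies and Ces1e, the gene also known as egasyn, has 5, a number reached or passed by 7.12% of those transcripts. The 3 copies in the coding part of Ces1e, each with 12 bases on either side, are shown because Ces1e also had the largest fold change of the family:
Ces1e exon 2: ctccaccacagcCTGCAGagccctggagct
Ces1e exon 6: gtgtggccctcaCTGCAGgcctggtcaaga
Ces1e exon 14: aaggaaggttatCTGCAGattggagccacc
The exon 6 word is at chr8:93215081-93215086 and the exon 14 word at chr8:93201512-93201517, both on the minus strand. A search for CNGCAGN as a 7-base loop closed by a stem of at least 4 base pairs found a match in 0 of the 8 members and in 9.48% of the transcripts of that length range. These matches are letters only, and no cut was measured.

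The libraries held 16966422 to 21107674 counts each, and 3 counts, taken as the limit of what is measurable, were worth 0.126 to 0.191 CPM (a count scaled to library size with TMM factors). Xbp1 averaged 246 ± 18.9 CPM in the SKO group against 77.0 ± 16.2 CPM in the DKO group (SD, n = 3 each; log2 fold change DKO over SKO -1.68 ± 0.14, SE; edgeR adjusted p = 0.000146). Nr1h4, which encodes FXR, had 98.4 ± 5.93 CPM in SKO against 97.3 ± 3.34 CPM in DKO (log2 fold change -0.02 ± 0.07, edgeR adjusted p = 0.891). Which exons the alleles remove is not given here, so gene counts of Nr1h4 do not check its loss. Of 13986 genes with enough counts to test, edgeR's quasi-likelihood test called 1446 higher (10.3%) and 1357 lower (9.70%) in DKO, 20.0% in all. The liver label was met by Alb, the albumin gene of hepatocytes, with 66409 ± 11815 CPM in SKO against 35758 ± 5177 CPM in DKO.

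Summed over the family, the Ces1 genes made up 5362, 6068 and 4964 CPM in the SKO libraries and 663, 622 and 855 CPM in the DKO libraries. The lowest SKO library was thus several times above the highest DKO library. The means were 5465 ± 559 and 714 ± 124 CPM, 7.66-fold lower in DKO, a log2 ratio of -2.94. As a share of all reads counted, the family took 0.506% ± 0.0385 in SKO and 0.0769% ± 0.0120 in DKO. Ces1c alone gave 54.3% of the 4751 CPM that separated the means.

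Of the 8 members, 6 passed the filter on low counts, and in each of these all 3 DKO libraries lay below all 3 SKO libraries. Among all genes tested, 19.4% had that arrangement. The median log2 fold change of the 6 was -2.77, beside 0.0059 over all genes tested. All 6 were at least 4-fold lower, as were 33 genes in all (0.236%). In bulk liver, fewer cells of a type and less RNA per cell cannot be told apart.

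**Figure D1:**
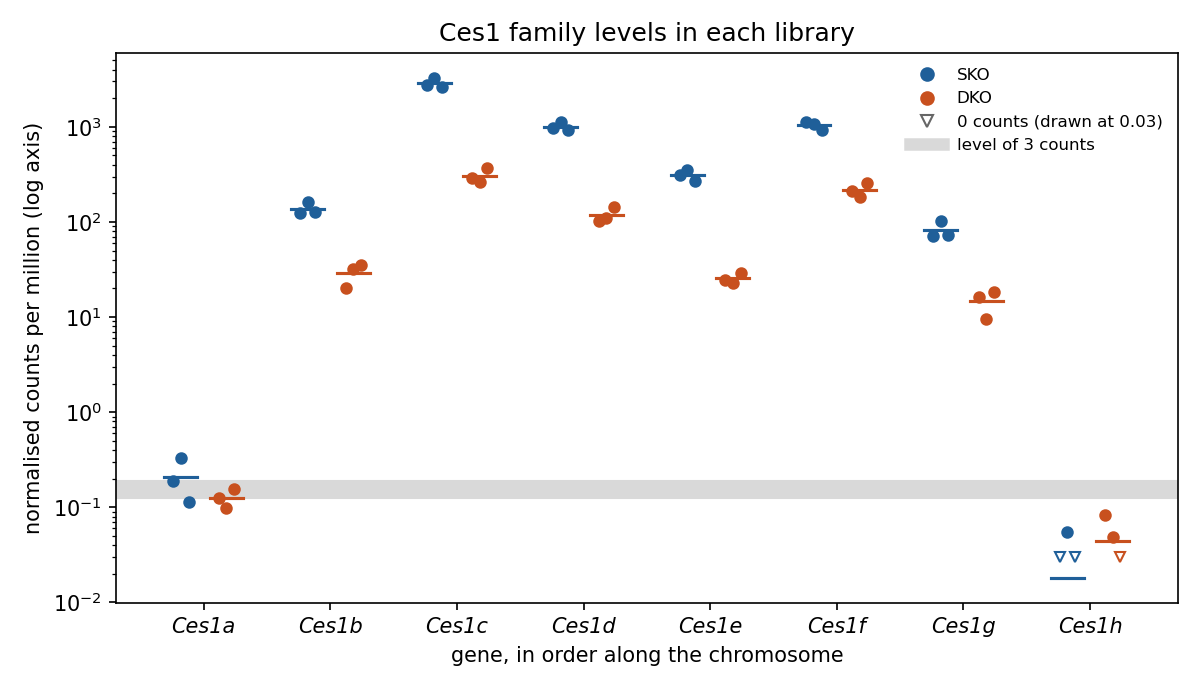
CPM of each Ces1 member in every library, on a log axis, with SKO and DKO as separate colours and short bars at the group means; open triangles, drawn at 0.03 CPM, mark libraries with 0 counts, and the grey band is the level of 3 counts. The 6 measurable members separate the groups without overlap, from Ces1c (2888 against 308 CPM on average) down to Ces1g (82.3 against 14.9 CPM), while Ces1a and Ces1h stay near the limit of 3 counts.

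Ces1c, ENSMUSG00000057400 at chr8:93099015-93131283, encodes the plasma carboxylesterase that the mouse liver secretes into blood. It had 2751, 3265 and 2647 CPM in SKO against 290.2, 262 and 372 CPM in DKO. The means of 2888 ± 330 and 308 ± 57.0 CPM stood 9.38-fold apart, a log2 fold change of -3.23 ± 0.16. It was the most abundant member in every library of both groups.

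Ces1d, ENSMUSG00000056973 at chr8:93166068-93197838, is the triglyceride hydrolase named above. Its levels were 982, 1119 and 923 CPM in SKO against 102, 111 and 145 CPM in DKO. The groups did not overlap, and the means, 1008 ± 101 and 119 ± 23.1 CPM, differed 8.45-fold (log2 fold change -3.08 ± 0.15).

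Ces1e, ENSMUSG00000061959 at chr8:93201218-93229619, is egasyn, which holds beta-glucuronidase in the endoplasmic reticulum. Its 3 SKO libraries held 311, 349 and 268 CPM and its 3 DKO libraries 24.7, 22.8 and 29.1 CPM, again without overlap. With means of 309 ± 40.3 and 25.6 ± 3.20 CPM it was 12.1-fold lower, and its log2 fold change of -3.60 ± 0.13 was the largest of the family. Its partner Gusb, which encodes beta-glucuronidase, averaged 39.6 ± 2.22 CPM in SKO against 48.2 ± 1.63 CPM in DKO (log2 fold change 0.28 ± 0.07, edgeR adjusted p = 0.0217). That call was lost when SKO 1, SKO 3, DKO 1 or DKO 3 (libraries by group and replicate) was left out and in DESeq2, with an adjusted p of up to 0.0727.

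Ces1f, ENSMUSG00000031725 at chr8:93256236-93279747, is a microsomal carboxylesterase whose abundance in SKO was close to that of Ces1d. It had 1123, 1072 and 925 CPM in SKO against 210.2, 184 and 255 CPM in DKO. Its means of 1040 ± 102 and 216 ± 35.7 CPM were 4.80-fold apart (log2 fold change -2.26 ± 0.14), so 20.8% of the SKO level was left, against 10.7% for Ces1c. The 3 DKO libraries again lay below all 3 SKO libraries.

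Ces1g, ENSMUSG00000057074 at chr8:93302369-93337308, known as esterase-x, has been tied to control of liver lipid synthesis. It was measured at 71.0, 102 and 73.8 CPM in SKO and at 16.4, 9.67 and 18.5 CPM in DKO. The means, 82.3 ± 17.1 and 14.9 ± 4.62 CPM, gave a 5.53-fold difference and a log2 fold change of -2.47 ± 0.28, with the widest error among the 6. SKO replicate 2 stood above the other two SKO libraries, and DKO replicate 2 was the lowest of all.

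Ces1b, ENSMUSG00000078964 at chr8:93056728-93080017, is the nearest relative of Ces1c. It had 124, 160.4 and 126 CPM in SKO against 20.2, 32.4 and 35.6 CPM in DKO, without overlap. The means of 137 ± 20.4 and 29.4 ± 8.14 CPM were 4.65-fold apart (log2 fold change -2.22 ± 0.23). Of the 50-base stretches in its transcript, 11.6% also occur in another gene's transcript, that of Ces1c, Ces1d or Gm45910, and 17% of those of Ces1c occur elsewhere. At 100 bases these shares were 1.29% and 1.39%. How the authors' counting treated such reads is not given, so the division of counts between Ces1b and Ces1c is less certain than that of Ces1d, Ces1e, Ces1f and Ces1g, where 1.28% to 3.21% of the 50-base stretches were shared.

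Ces1a, ENSMUSG00000071047 at chr8:93020214-93048192, had 3, 6 and 2 counts in SKO and 3, 2 and 3 counts in DKO. Ces1h, ENSMUSG00000074156 at chr8:93351843-93379725, had 0, 1 and 0 counts in SKO against 2, 1 and 0 in DKO. These are the outermost genes of the row on either side. Both were too low for a fold change, and a difference between the groups was not detectable at this depth.

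**Figure D2:**
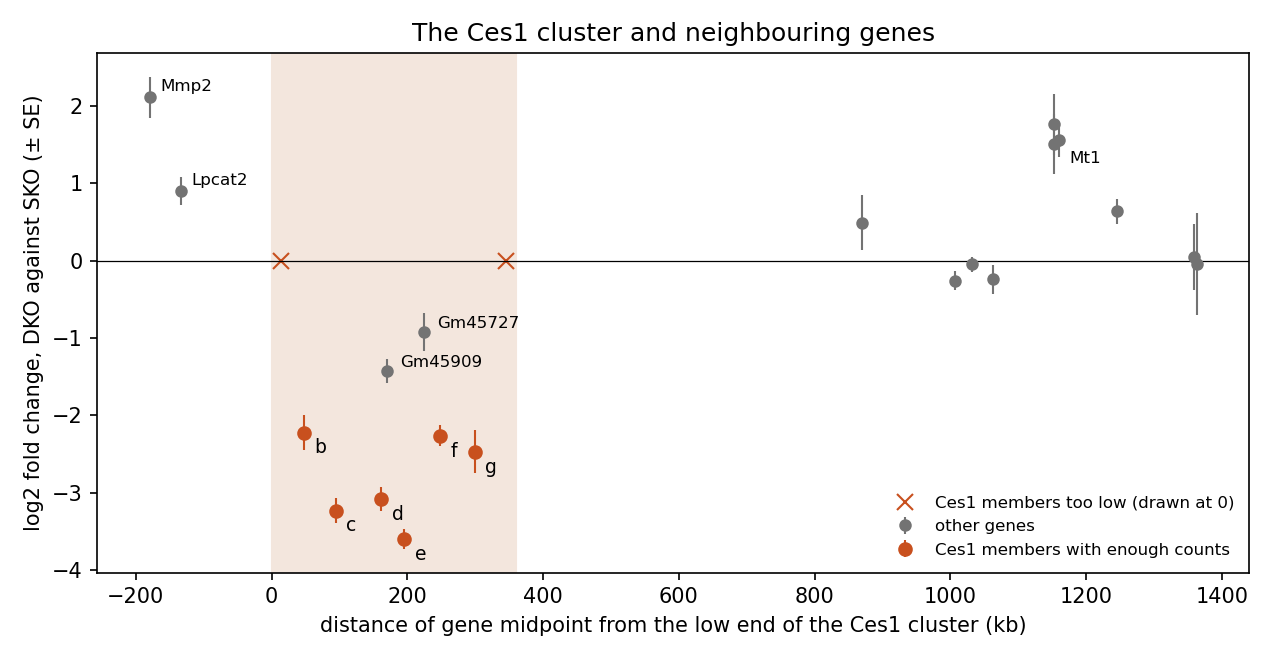
Log2 fold change (DKO against SKO, ± SE) of the Ces1 members (Ces1b to Ces1g, by their last letter) and of neighbouring genes, against the distance in kb of each gene's midpoint from the low end of the shaded cluster; crosses at 0 mark Ces1a and Ces1h, which were too low. The 3 adjacent members Ces1c, Ces1d and Ces1e have the most negative values, from -3.08 to -3.60. The other measurable members, Ces1b, Ces1f and Ces1g, lie between -2.22 and -2.47.

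Read along the chromosome, the folds were not even. The 3 adjacent members in the middle, Ces1c, Ces1d and Ces1e, were 8.45 to 12.1-fold lower, and the 3 others, Ces1b on one side and Ces1f and Ces1g on the other, were 4.65 to 5.53-fold lower. Ranked from the most negative log2 fold change of all 13986 genes, Ces1e stood at 3, Ces1c at 6, Ces1d at 7, Ces1g at 10, Ces1f at 15 and Ces1b at 19. The make-up of the family's RNA changed accordingly. Ces1c held 51.3% to 53.8% of the family's counts in the SKO libraries and 42.1% to 43.7% in the DKO libraries. Ces1f went the other way, from 19.1% ± 1.68 in SKO to 30.4% ± 1.14 in DKO. The 95% exact binomial interval of its share was 20.7% to 21.2% in SKO replicate 1, the highest of that group, and 28.8% to 30.4% in DKO replicate 2, the lowest of the other, and these intervals cover counting error only.

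The shares of the other members differed too. Ces1e held 5.65% ± 0.217 in SKO and 3.60% ± 0.175 in DKO, and Ces1d 18.5% ± 0.143 and 16.7% ± 1.29, neither with overlap between groups. Ces1b held 2.50% ± 0.169 and 4.14% ± 1.08, also without overlap. Ces1g had 1.5% ± 0.178 and 2.06% ± 0.469, and there the groups overlapped. Shares add to a fixed sum, so a lower share of Ces1c raises the others, and none of these shares was tested.

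**Figure D3:**
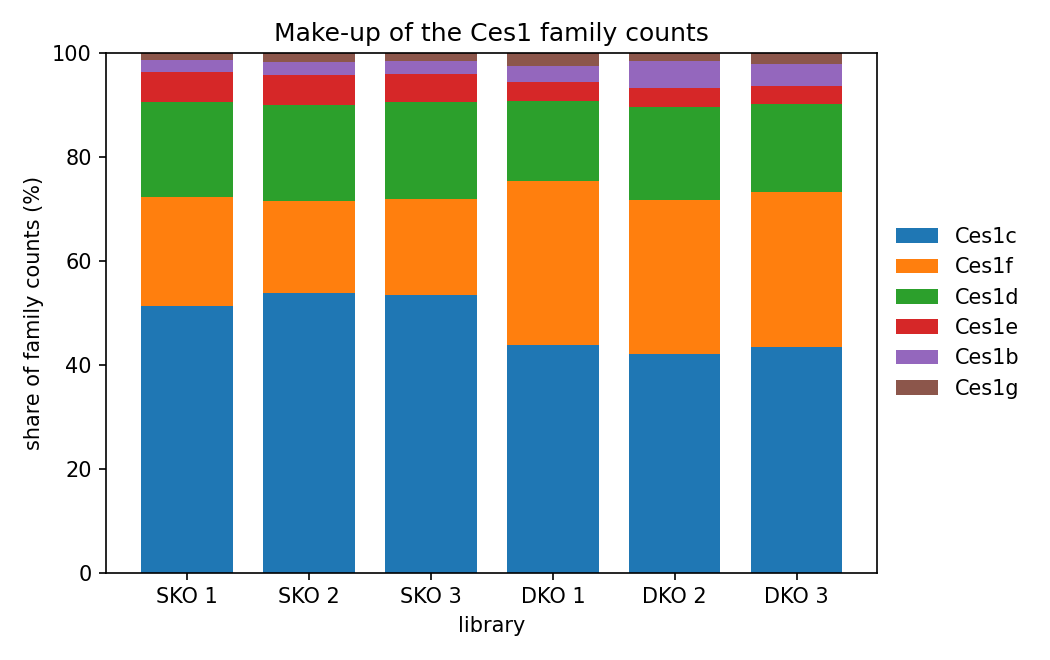
Share of the Ces1 family's counts (%) taken by each of the 6 measurable members, stacked for each of the 6 libraries. The Ces1c portion is 51.3% to 53.8% in SKO but 42.1% to 43.7% in DKO, and the Ces1f portion is 17.7% to 20.9% in SKO against 29.6% to 31.7% in DKO.

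To compare levels between members, CPM were divided by the length of all annotated exons in kilobases. In SKO, Ces1c led with 1243 ± 142 CPM per kb, followed by Ces1d with 426 ± 42.5, Ces1f with 317 ± 31.2 and Ces1e with 141 ± 18.4. Ces1b followed with 69.7 ± 10.4 CPM per kb and Ces1g with 34.4 ± 7.18, and no neighbours in this order overlapped between libraries. In DKO the order was Ces1c with 133 ± 24.5 CPM per kb, Ces1f with 65.9 ± 10.9 and Ces1d with 50.4 ± 9.74, then Ces1b with 15 ± 4.14, Ces1e with 11.7 ± 1.46 and Ces1g with 6.22 ± 1.94. There Ces1f and Ces1d overlapped between libraries, as did Ces1b and Ces1e. With the length of the longest coding transcript instead, Ces1f stood above Ces1d in SKO as well, at 540.0 against 503 CPM per kb, so the order of those 2 genes rests on the choice of length.

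Within a group the members mostly shared the highest library but not the lowest. SKO replicate 2 was the highest SKO library for 5 of the 6 measurable members, all except Ces1f, and DKO replicate 3 was the highest DKO library for all 6. The lowest was SKO replicate 3 for 4 members and SKO replicate 1 for 2. In DKO it was replicate 2 for 4 members and replicate 1 for 2. The coefficient of variation between libraries was 9.85% to 20.8% in SKO against 12.5% to 31.1% in DKO, largest for Ces1g in both. The gap between groups was several times this spread for every measurable member.

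Inside an intron of Ces1d lies Gm45909, a record with a single exon of 1031 bp at chr8:93190328-93191358 on the same strand. It sits between exons 3 and 4 of the Ces1d transcript and overlaps no annotated exon of Ces1d. It had 120, 183 and 169 counts in SKO and 83, 65 and 67 counts in DKO. In CPM it was 7.62, 10.0 and 9.51 against 3.49, 3.17 and 3.47, 2.68-fold lower in DKO (log2 fold change -1.42 ± 0.16, edgeR adjusted p = 0.000366). Ces1d around it was 8.45-fold lower.

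Put as a share of the counts of Gm45909 and Ces1d together, the intronic record was 0.770%, 0.888% and 1.02% in SKO against 3.32%, 2.78% and 2.33% in DKO. The 95% exact binomial intervals reached up to 1.18% in SKO and down to 1.81% in DKO, and they cover counting error only, not the spread between libraries. On the log2 scale the 2 fold changes were 1.66 apart. Unspliced Ces1d RNA and a transcript of its own cannot be told apart in gene counts, and the difference between the 2 fold changes was not tested.

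**Figure D4:**
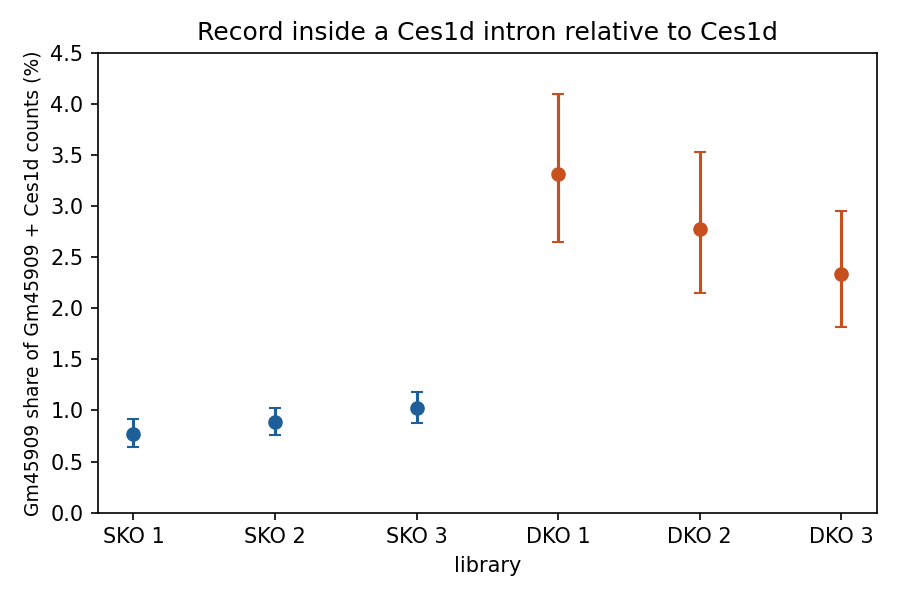
Counts of the intronic record Gm45909 as a percentage of the counts of Gm45909 and Ces1d together, per library, with 95% exact binomial intervals for counting error only. The 3 SKO libraries lie between 0.770% and 1.02% and the 3 DKO libraries between 2.33% and 3.32%.

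The cluster holds 5 other annotated genes, of which 2 had enough counts to test. Besides Gm45909, the pseudogene Gm45727 between Ces1e and Ces1f averaged 4.58 ± 0.398 CPM in SKO against 2.40 ± 0.827 CPM in DKO (log2 fold change -0.92 ± 0.24, edgeR adjusted p = 0.0262). That call ended when SKO 2, SKO 3, DKO 2 or DKO 3 was left out and with total counts as the scale, with an adjusted p of up to 0.0898.

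Outside the cluster, within 1 Mb on either side, 13 of 48 annotated genes could be tested. Of these 13, 6 were higher in DKO, beside 10.3% of all genes tested. On the Ces1a side the nearest genes with counts were Lpcat2, a lysophospholipid acyltransferase, Gm45472, with 2 counts in all, and Mmp2, a matrix protease. Lpcat2 went from 3.30 CPM in SKO to 6.14 CPM in DKO (log2 fold change 0.90 ± 0.18, edgeR adjusted p = 0.00819). Mmp2 rose from 2.77 ± 0.309 to 11.9 ± 4.44 CPM (log2 fold change 2.11 ± 0.27, edgeR adjusted p = 0.00137). On the Ces1h side, Gnao1 and Nudt21 were among the nearest, neither called (log2 fold changes 0.49 ± 0.35 and -0.26 ± 0.12, edgeR adjusted p of 0.362 and 0.159). The Ces1 family was selected on its fall, so the size of that fall is not set against the changes in the flanks.

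The other carboxylesterases form further families, also on chromosome 8. Ces5a, with 0 counts, lies within 1 Mb of the cluster on the Ces1h side, and the Ces2, Ces3 and Ces4a genes lie farther off. Of 12 genes 8 were tested, with 1 higher and 3 lower, beside 10.3% and 9.70% of all genes tested. Their median log2 fold change was -0.54. Ces2a, an intestinal and liver esterase, had 289, 371 and 297 CPM in SKO against 115, 105 and 133 CPM in DKO (log2 fold change -1.44 ± 0.12, edgeR adjusted p = 8.35e-05). Ces3b, a relative of the triglyceride hydrolases, had 242, 318 and 414 CPM in SKO against 49.9, 84.9 and 88.0 CPM in DKO (log2 fold change -2.13 ± 0.30, edgeR adjusted p = 0.00725). In both, every DKO library was below every SKO library. Ces2c, named after its value was seen, was the third lower gene (-0.59 ± 0.16, edgeR adjusted p = 0.0322). Ces2g was called higher, by 0.25 ± 0.07 (edgeR adjusted p = 0.0293), but not without SKO replicate 1, 2 or 3, without DKO replicate 1 or 3 or in DESeq2, with an adjusted p of up to 0.124. Ces3a, also named after its value was seen and with 2145 ± 265 CPM in SKO the most abundant of the list, had 1751 ± 226 CPM in DKO, without a call (edgeR adjusted p = 0.158).

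Other enzymes of neutral lipid hydrolysis formed a further list. Of 16 genes tested, 4 were lower, Lipc, Lipe, Abhd6 and Pnpla8, and 1 was higher, Lpl. Over all genes tested, 9.70% were lower and 10.3% higher. The median log2 fold change of the list was -0.23. Lipc, the hepatic lipase that the liver secretes, went from 199 ± 18.8 to 115 ± 20.1 CPM (log2 fold change -0.79 ± 0.13, edgeR adjusted p = 0.00351). Lipe, hormone-sensitive lipase, went from 25.1 ± 2.85 to 17.7 ± 1.33 CPM (-0.50 ± 0.10, edgeR adjusted p = 0.00954). Abhd6, a monoacylglycerol lipase, was lower by -0.38 ± 0.11 (edgeR adjusted p = 0.0373), a call lost in 6 of 11 alternatives (upper-quartile or total-count scaling, or SKO 1, SKO 3, DKO 1 or DKO 3 left out), with an adjusted p of up to 0.279. The count of lower genes was 2 with SKO 1, DKO 1 or DKO 3 left out, and Lpl (15.9 and 34.4 CPM, edgeR adjusted p = 0.0401) was not called without SKO replicate 1, 2 or 3 or DKO replicate 3.

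Genes of VLDL assembly, the process that Ces1d serves, were lower in 6 of 10 cases and higher in 0. All genes tested gave 9.70% lower and 10.3% higher. The median of the 10 genes was -0.36. At an unadjusted p under 0.05, 1 was higher, and DESeq2 called 0 higher and 6 lower. Dgat2, which makes triglyceride, fell from 970 ± 29.5 to 203 ± 38.3 CPM (log2 fold change -2.25 ± 0.13, edgeR adjusted p = 1.34e-05). P4hb, protein disulfide isomerase and a subunit of the microsomal triglyceride transfer protein, fell from 1516 ± 79.7 to 660.1 ± 44.6 CPM (-1.20 ± 0.10, edgeR adjusted p = 8.35e-05). Mia2, which helps large cargo leave the endoplasmic reticulum, fell too (log2 fold change -0.44 ± 0.09, edgeR adjusted p = 0.00924). The number of lower genes was 2 without SKO replicate 2 and 3 without SKO replicate 3, and Mia2 was not called without SKO replicate 2 (edgeR adjusted p = 0.0514) or with total counts as the scale (0.0529).

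Other liver ester and epoxide hydrolases gave 1 higher and 2 lower of 10 tested, beside 10.3% and 9.70% of all genes tested. The median of this list was -0.03. Ephx1, the microsomal epoxide hydrolase, rose from 608 ± 81.5 to 1086 ± 52.2 CPM (log2 fold change 0.84 ± 0.12, edgeR adjusted p = 0.00133). Ephx2, the soluble epoxide hydrolase, was lower by -0.55 ± 0.10 (edgeR adjusted p = 0.00482), and Pon1, the serum paraoxonase, by -0.64 ± 0.13 (edgeR adjusted p = 0.00837). Ephx1 was higher in every DKO library than in any SKO library.

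Among 15 liver transcription factors, 6 were called lower and 0 higher in edgeR, beside 9.70% and 10.3% of all genes tested. The median of the 15 factors was -0.24. None was higher at an unadjusted p under 0.05 or in DESeq2 either, which called 7 lower. Srebf1, which drives fatty acid synthesis genes, fell from 244 ± 31.0 to 87.8 ± 3.58 CPM (log2 fold change -1.47 ± 0.10, edgeR adjusted p = 2.11e-05). Ppara, the fatty acid sensor of the liver, was lower by -0.66 ± 0.07 (edgeR adjusted p = 0.000378), and Thrb, a thyroid hormone receptor, by -0.64 ± 0.09 (edgeR adjusted p = 0.00114). Hnf4a, named after its value was seen, averaged 710.1 ± 114 CPM in SKO against 764 ± 58.2 CPM in DKO, without a call (edgeR adjusted p = 0.599).

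KDEL receptors return proteins with a matching tail, carboxylesterases among them, to the endoplasmic reticulum. Kdelr1 averaged 116 CPM in SKO against 117 CPM in DKO (log2 fold change 0.01 ± 0.07, edgeR adjusted p = 0.927). Kdelr2 was called lower at -0.29 ± 0.09 (edgeR adjusted p = 0.0426), a call that was lost in 7 of 11 alternative analyses, among them those without SKO replicate 2 or 3 or without any of the 3 DKO libraries, with an adjusted p of up to 0.598.

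A list of mRNAs known from other work as substrates of IRE1 was split, with 7 lower and 6 higher of 13 tested. The shares over all genes tested were 9.70% and 10.3%. The median of the list was -0.42. Hgsnat, a lysosomal acetyltransferase, was lower by -1.43 ± 0.10 (edgeR adjusted p = 2.29e-05), and Cyp2e1, a cytochrome P450, by -1.29 ± 0.14 (edgeR adjusted p = 0.000309). The 6 higher members include Pdgfrb, which is also among the stellate cell markers, and without SKO replicate 2 only 1 was still called higher. Ern1, which encodes IRE1, averaged 101 ± 10.7 CPM in SKO against 121 ± 3.22 CPM in DKO, without a call (log2 fold change 0.26 ± 0.09, edgeR adjusted p = 0.0573), though it was without SKO replicate 3, with upper-quartile or total-count scaling and with no filter.

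**Figure D5:**
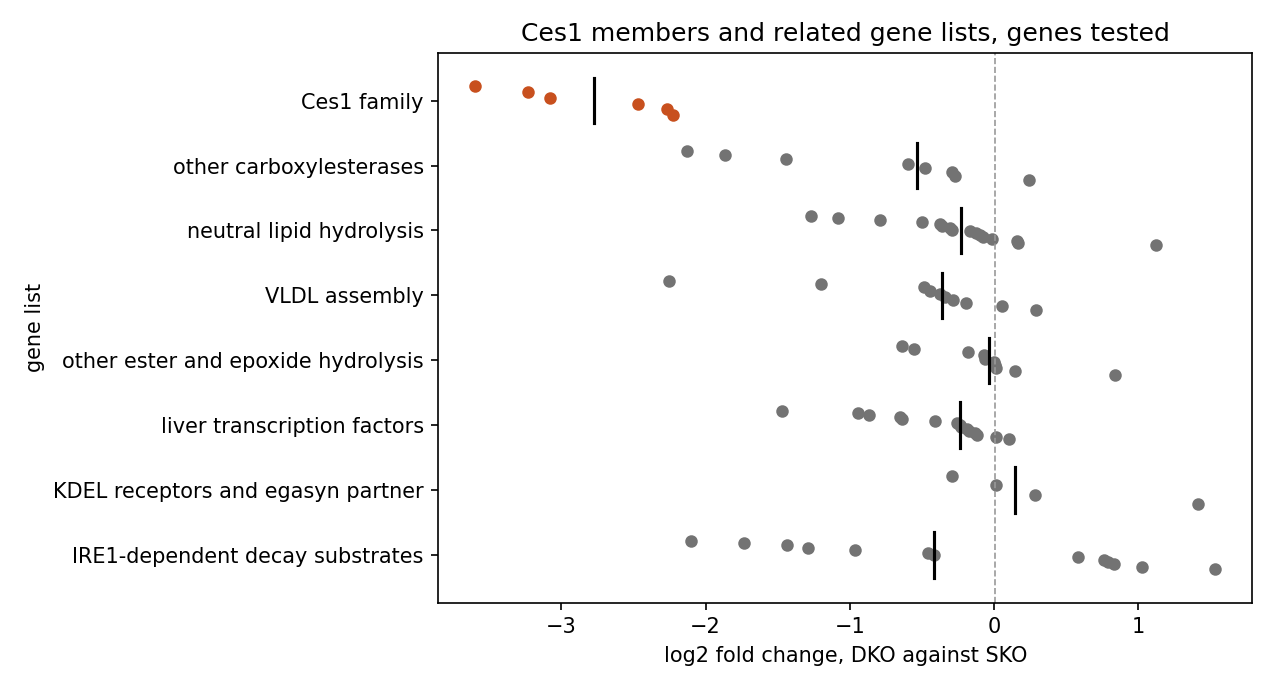
Log2 fold changes (DKO against SKO) of the tested genes of each list, 1 point per gene, with the list's median as a bar. The 6 measurable Ces1 members lie between -3.60 and -2.22 with a median of -2.77, and the medians of the 7 other lists drawn lie between -0.54 and 0.15.

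The cell type markers also moved, where 10.3% of all genes tested were called higher and 9.70% lower. Hepatocyte markers were lower in 5 of 10 cases (Alb, Ttr, Apoa1, Apob and Serpina1c), and their summed level was 93628 to 121979 CPM in SKO and 60814 to 75270 CPM in DKO. Stellate cell markers were higher in 4 of 6 (Dcn, Col1a1, Col3a1 and Pdgfrb), with sums of 331 to 395 CPM in SKO and 563 to 821 CPM in DKO. Cholangiocyte markers were higher in 3 of 6 (Krt19, Epcam and Spp1), with sums of 79.6 to 90.6 CPM and 140 to 221 CPM. Kupffer cell markers were higher in 1 of 6 in edgeR (Adgre1) and in all 6 in DESeq2, with sums of 409 to 524 CPM and 521 to 793 CPM. The 6 endothelial and the 6 lymphocyte markers gave no call in edgeR or DESeq2 (1 endothelial marker was lower at an unadjusted p under 0.05), with sums of 353 to 380.3 CPM and 4.33 to 6.10 CPM in SKO and of 331 to 359 CPM and 3.94 to 7.18 CPM in DKO. With SKO 2 left out, the calls were 1 hepatocyte marker lower and 1 stellate, 1 cholangiocyte and 0 Kupffer cell markers higher. With SKO 3 left out they were 3 lower and 2, 1 and 0 higher in the same order. The stellate count was 2 without SKO 1, and the Kupffer count was 3 without SKO 1, 5 without DKO 2 and 0 without DKO 3. No marker of any list was at 0 in all libraries. The largest fall among the hepatocyte markers was a log2 fold change of -1.01 ± 0.17 in Serpina1c. The Ces1 family was selected on its fall, so its size is not set against that of the markers. The part of these shifts in the Ces1 values was not tested.

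As the genes most like the family total over the 6 libraries, 5 were taken by Pearson's r of log2(CPM + 1) among 8209 genes of at least 10 CPM. They were B630019A10Rik and Lrtm1 (r = 0.999 each), Azgp1, F2 and Gjb1 (r = 0.998 each). Azgp1, a secreted zinc-binding glycoprotein, averaged 1944 CPM in SKO against 594 CPM in DKO. F2, prothrombin, averaged 2049 and 1119 CPM, and Gjb1, the liver gap junction protein connexin 32, 798 and 267 CPM. These 5 genes were 1.83 to 3.96-fold lower in DKO. The family was selected on its fall, so its size is not set against theirs. The own r of the measurable Ces1 members was 0.980 or more. The 6 libraries form 2 separate groups, so r here mostly measures that separation and carries no p.

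The start regions of the members were compared with the promoter table of RefSeq (GRCm38.p6), which matched 6 of the 8 genes, Ces1a, Ces1b, Ces1c, Ces1e, Ces1g and Ces1h, and not Ces1d and Ces1f. In the 250 bases before the start, Ces1b and Ces1c were 80.4% identical with a shared run of 58 bases. Ces1b has more than 1 start in that table. All its pairs used chr8:93079941-93080190, which reaches into exon 1 of the Ces1b transcript used above. The Ces1g entry, chr8:93337210-93337459, likewise reaches into the GENCODE gene, whose 5′ end is at chr8:93337308. The other 14 pairs were 43.9% to 53.7% identical, with shared runs of 7 to 14 bases. Outside the pair of Ces1b and Ces1c, the upstream sequences thus shared only short runs. Searched on both strands, TGACGTGG (a site of the unfolded protein response, present in 0.563% of 32851 promoters), ACGTG (the core shared by many basic leucine zipper factors, 16.6%) and the endoplasmic reticulum stress element, CCAAT followed after 9 free bases by CCACG (0.113%), matched in 0 of the 6 members.

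The octamer TTATGTAA, a sequence that factors such as DBP and NFIL3 are known to bind, was picked after the letters had been seen. It occurs in 0.819% of all promoter entries and, in at least 1 entry, in 5 of the 6 members, though not in Ces1h. Counted from the RefSeq start, the first base of the match is at -198 in Ces1a, -84 in Ces1b, -94 in Ces1c, -81 in Ces1e and -232 in Ces1g. In Ces1b and Ces1g the start used for this lies inside the GENCODE gene. The match in Ces1b is in the entry chr8:93079941-93080190. Its other entry, chr8:93080018-93080267, directly before the GENCODE gene, holds no full octamer. Ces1a, which has the octamer, was near 0 in these livers. The regions of Ces1c, the most abundant member, and of Ces1e, the one with the largest fold change, are printed 5′ to 3′ on the minus strand, with the octamer in capitals. They lie at chr8:93131284-93131533 and chr8:93229620-93229869:
Ces1c: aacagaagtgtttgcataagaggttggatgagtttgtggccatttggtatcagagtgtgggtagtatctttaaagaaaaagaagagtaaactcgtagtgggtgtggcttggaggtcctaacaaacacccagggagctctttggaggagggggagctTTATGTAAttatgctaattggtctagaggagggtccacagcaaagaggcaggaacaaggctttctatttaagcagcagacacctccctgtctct
Ces1e: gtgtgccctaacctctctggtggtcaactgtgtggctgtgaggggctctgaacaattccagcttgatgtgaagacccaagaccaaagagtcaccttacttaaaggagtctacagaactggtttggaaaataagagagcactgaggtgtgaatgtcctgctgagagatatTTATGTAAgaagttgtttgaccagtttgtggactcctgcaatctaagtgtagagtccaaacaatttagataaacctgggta
In both, the octamer stands within the last 100 bases before the start. No binding was measured, and a match or its absence says nothing here about any factor.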

How the data were processed

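Liver RNA, extracted with Trizol, was sequenced in 3 SKO and 3 DKO libraries. The authors deposited raw counts of reads per Ensembl gene, 1 table a library. The submitters' processing notes name mm10, cutadapt 1.13, STAR, HTSeq 0.6.1p1 and DESeq2. No source used here gives the read length, strand setting or annotation release. Symbols, transcripts and coordinates came from GENCODE M21 (54165 of 54232 identifiers matched) and upstream sequences from RefSeq.

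Counts were filtered with filterByExpr, scaled with TMM and tested in edgeR 4.0.16 (R 4.3.3) by the quasi-likelihood test, with Benjamini-Hochberg adjustment over 13986 genes and calls under 0.05. DESeq2 1.42.0, other scalings, no filter and leaving out each library were alternatives. The fit was tested on simulated data. Chi-square per degree of freedom between libraries of a group was 11.1 to 32.4, so none appeared to be a repeat. Replicate numbers only name libraries.

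The members and lists were chosen with earlier results of these data known. Named were all members, Xbp1, Nr1h4, Ern1 and Gusb, the 3 called genes with the smallest p of each list, the 3 nearest genes with counts on each side, and the 5 most alike. Others are marked where they appear or complete a small count. Some genes that this rule names are not reported here.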

Additional observations from a re-analysis of the deposited data

How the results depend on the processing

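The family's log2 ratio stayed between -3.09 and -2.72 under its 9 alternatives. With total counts only as the scale, the median over all tested genes (log2) moved from 0.0059 to 0.23, and 3848 genes were called higher and 539 lower. The share of calls that were higher was 51.6% with TMM, 65.3% with upper-quartile factors and 87.7% with total counts. Leaving out 1 library gave 674 to 1569 genes higher and 745 to 1200 lower. The smallest counts came without SKO replicate 2, and SKO replicate 3 and DKO replicate 3 also moved both of them by over 1.5 times; fewer samples were fitted there. Ces1e moved by more than its spread with total counts, to -3.38. Per kilobase, Ces1c took 55.7% of the family in SKO and 47.0% in DKO. With the longest coding transcript as length, SKO levels were 1579.7 CPM per kb for Ces1c, 503 for Ces1d and 540.0 for Ces1f, and DKO levels 168 for Ces1c and 112 for Ces1f. The uncalled log2 fold change of Nr1h4 changed sign with upper-quartile factors (0.044) and total counts (0.20), and ran from -0.066 to 0.026 with 1 library left out, above 0 without SKO replicate 3 or DKO replicate 1; the cause was not tested.

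No paired analysis was possible because replicate numbers were assigned in accession order and no label links an SKO library with a DKO one. With 3 libraries a group and no label that says how many mice each held, the spread among mice is not measured. Ces1a and Ces1h are limited by depth.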
